A study of Mus musculus with 20 samples.

Results

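Lag3, Ctla4, Havcr2 and Cd160, which encode inhibitory receptors of T cells, were followed in CD8 T cells taken from melanomas. They are 4 of the 27916 genes in the single-cell tables, and were read in the 5083 CD8 T cells that lay among 7398 cells kept after filtering. A cell was taken as a CD8 T cell when it held at least 3 UMIs of Cd3d, Cd3e and Cd3g together and at least 1 UMI of Cd8a or Cd8b1. A UMI, or unique molecular identifier, marks the reads copied from a single captured RNA molecule. The gate uses none of the 4 receptors, so their levels are free to vary between cells and libraries.

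The transferred T cells carried the OT-I receptor, which recognises ovalbumin. They were put into mice bearing B16 melanoma cells that were engineered to make ovalbumin (B16-OVA). Infiltrating CD8+ cells were collected 8 days after transfer and sequenced on the 10x Chromium 3′ platform. The 4 libraries were Tet2 knockout with anti-PD-L1, Tet2 knockout untreated, wild-type with anti-PD-L1 and wild-type untreated, with 1 library for each. Tet2 encodes an enzyme that oxidises 5-methylcytosine in DNA, and anti-PD-L1 is an antibody against a ligand of the inhibitory receptor PD-1. Knockout cells came from a cross of Tet2-/- mice with OT-1 mice, so that the gene was lost in the germline. All 4 groups share the OT-I receptor of the transferred cells, the tumour line and the day. The gate does not separate transferred cells from CD8 T cells of the recipients. Knockout and wild-type therefore name the cells transferred for a library. The age and sex of the animals, the genotype of the recipients, the antibody clone and dose, and the number of animals behind a library are not stated in the labels.

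Inhibitory receptors appear on T cells after activation and hold back the response when their ligands are present. CTLA-4 competes with CD28 for CD80 and CD86 on antigen-presenting cells. LAG-3 binds MHC class II and other ligands, TIM-3 (Havcr2) binds galectin-9 and CEACAM1 among others, and CD160 binds the TNF-receptor family protein HVEM (Tnfrsf14). Together with PD-1 they are used as marks of T cell exhaustion, the state of reduced function that develops in tumours and chronic infection. TIM-3 is used to mark its terminal stage, and the transcription factor TCF-1 (Tcf7) its progenitor stage.

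Promoter windows are shown because Tet2 acts on methylated cytosines, which in mammals lie mostly at CG dinucleotides. Each window, from RefSeq on GRCm38.p6, runs from 250 bases before to 50 bases after an annotated start, is written 5′ to 3′ on the gene's own strand, and has every CG in capitals.
Ctla4: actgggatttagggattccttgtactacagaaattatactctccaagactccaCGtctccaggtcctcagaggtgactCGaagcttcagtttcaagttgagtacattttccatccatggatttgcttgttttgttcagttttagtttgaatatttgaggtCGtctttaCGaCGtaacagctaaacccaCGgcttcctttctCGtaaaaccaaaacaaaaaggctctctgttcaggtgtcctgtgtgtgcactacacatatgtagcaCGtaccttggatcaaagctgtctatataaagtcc
Havcr2: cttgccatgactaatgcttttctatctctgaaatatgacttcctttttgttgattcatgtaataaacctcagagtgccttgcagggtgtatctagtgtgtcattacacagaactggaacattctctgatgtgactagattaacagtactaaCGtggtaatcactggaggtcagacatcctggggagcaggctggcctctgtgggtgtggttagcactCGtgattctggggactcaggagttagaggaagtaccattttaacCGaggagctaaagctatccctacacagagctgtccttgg
Cd160: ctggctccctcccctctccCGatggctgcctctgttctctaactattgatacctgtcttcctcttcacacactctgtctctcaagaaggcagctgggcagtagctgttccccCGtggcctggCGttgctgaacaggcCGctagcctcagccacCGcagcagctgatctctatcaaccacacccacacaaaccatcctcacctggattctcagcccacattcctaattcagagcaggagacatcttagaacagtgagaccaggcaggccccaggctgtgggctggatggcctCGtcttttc
The Ctla4 window lies at chr1:60908775-60909074 on the plus strand and holds 8 CG. The Havcr2 window lies at chr11:46454681-46454980 on the plus strand and holds 3, and the Cd160 window at chr3:96829302-96829601 on the minus strand holds 6, as does the window of a second annotated Cd160 start at chr3:96814472-96814771. The median over 32851 promoter windows was 7, and 54.2%, 31.4% and 47.9% of windows hold as few CG as Ctla4, Havcr2 and Cd160 or fewer. Short motifs of factors that act after T cell receptor signalling were also searched. The NFAT core GGAAA, on either strand, matched 1 time in Ctla4 and in the second Cd160 window, and is found in 61.3% of all windows. The AP-1 motif TGANTCA, whose reverse complement has the same letters, matched 1 time in Havcr2 and is found in 7.81% of windows. The RUNX core TGTGGT, on either strand, matched 1 time in Havcr2 and in each Cd160 window, and is found in 16.8%. These matches describe the letters of the windows; methylation was not analysed here. The genes span chr1:60909025-60915832 (Ctla4), chr11:46454931-46481255 (Havcr2), chr3:96798763-96829351 (Cd160) and chr6:124904359-124912434 (Lag3), and all are protein-coding.

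The gated CD8 T cells numbered 1035 in knockout anti-PD-L1, 1596 in knockout untreated, 1331 in wild-type anti-PD-L1 and 1121 in wild-type untreated, with 4972006 to 8517909 UMIs per library. All 11 CD8 T cell markers were detected in each library. Markers of other cells were found in the gate as well. The macrophage list, with 7 of 7 detected in each library, summed to 549 to 1102 CPM, the dendritic list to 325 to 746 CPM, the erythroid list to 141 to 637 CPM and the melanoma list to 15.5 to 438 CPM. The dendritic sum was almost all Ccr7, at 222 to 526 CPM, and H2-Aa, at 101 to 305 CPM. The other dendritic genes, Flt3, Zbtb46, Xcr1 and Siglech, each stood at 1.33 CPM or less. NK cell markers had UMIs in 3.45% to 8.49% of the cells. Most of these UMIs were of Eomes, at 6.35 to 14.3 CPM, which is also on the list of transcription factors read below. Klrb1c stood at 2.35 CPM or less, Klra8 at 1.18 CPM or less and Ncr1 at 0 in all libraries. The B cell gene Cd79b stood at 2.82 to 6.1 CPM, with Ms4a1 and Pax5 at 0. The wild-type untreated library stood apart. CD8 T cells were 48.8% of its cells, against 71.9% to 83.0% in the other libraries, their median depth was 3885 UMIs against 4575 to 6972, and 60.4% of them were mitotic (at least 3 UMIs of 7 mitotic genes) against 28.5% to 43.5%. In that library 32.3% of CD8 T cells held a UMI of a melanoma gene, against 10.1% to 12.1% elsewhere. UMIs of Y-linked genes were found in 14.5% and 10.8% of the CD8 T cells of wild-type anti-PD-L1 and wild-type untreated, and in 0.125% or fewer of knockout cells. Tet2 itself stood at 18.0 and 23.7 CPM in the knockout anti-PD-L1 and untreated libraries, against 15.8 and 15.1 CPM in the wild-type anti-PD-L1 and untreated libraries. These are 3′ tags, and whether they fall in the deleted part of the gene is not stated, so this level does not check the genotype. Pairs of libraries shared 1 to 3 barcodes among their CD8 T cells.

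In all 4 receptors the level was highest in knockout anti-PD-L1, then in wild-type anti-PD-L1, then in knockout untreated, and lowest in wild-type untreated. The order does not hold beyond counting error between the genotypes for Havcr2, nor between the anti-PD-L1 libraries for Cd160. Levels are CPM, a gene's counts per 1000000 UMIs summed over a library's CD8 T cells, with exact Poisson 95% intervals. With 1 library per group there is no replicate error, so no test was made. The intervals cover counting error only, and they are too narrow because UMIs of a single cell are not independent. In sums over cells, fewer cells that transcribe a gene and less RNA in each cannot be told apart.

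Lag3 stood at 467 CPM (452 to 482) in knockout anti-PD-L1, 342 CPM (329.5 to 354.5) in knockout untreated, 442 CPM (428 to 457) in wild-type anti-PD-L1 and 246 CPM (233 to 260) in wild-type untreated. The wild-type untreated library lay well below the other 3, and the anti-PD-L1 libraries lay close together. Ctla4 stood at 332 CPM (320 to 344.5) in knockout anti-PD-L1, 232 CPM (221.5 to 242) in knockout untreated, 291 CPM (280 to 303) in wild-type anti-PD-L1 and 116 CPM (107 to 126) in wild-type untreated. No intervals of Ctla4 overlapped, and the gap between the untreated libraries was wider than for any other receptor. Havcr2 stood at 61.6 CPM (56.4 to 67.2) in knockout anti-PD-L1, 24.7 CPM (21.5 to 28.3) in knockout untreated, 58.1 CPM (53.1 to 63.5) in wild-type anti-PD-L1 and 23.7 CPM (19.6 to 28.4) in wild-type untreated. Its libraries fell into a treated and an untreated pair, and within each pair the genotypes overlapped. Cd160 stood at 202 CPM (193 to 212) in knockout anti-PD-L1, 176 CPM (167 to 185) in knockout untreated, 198 CPM (189 to 208) in wild-type anti-PD-L1 and 129 CPM (119 to 139.5) in wild-type untreated. Both anti-PD-L1 libraries overlapped, and the wild-type untreated library was again set apart.

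**Figure D1:**
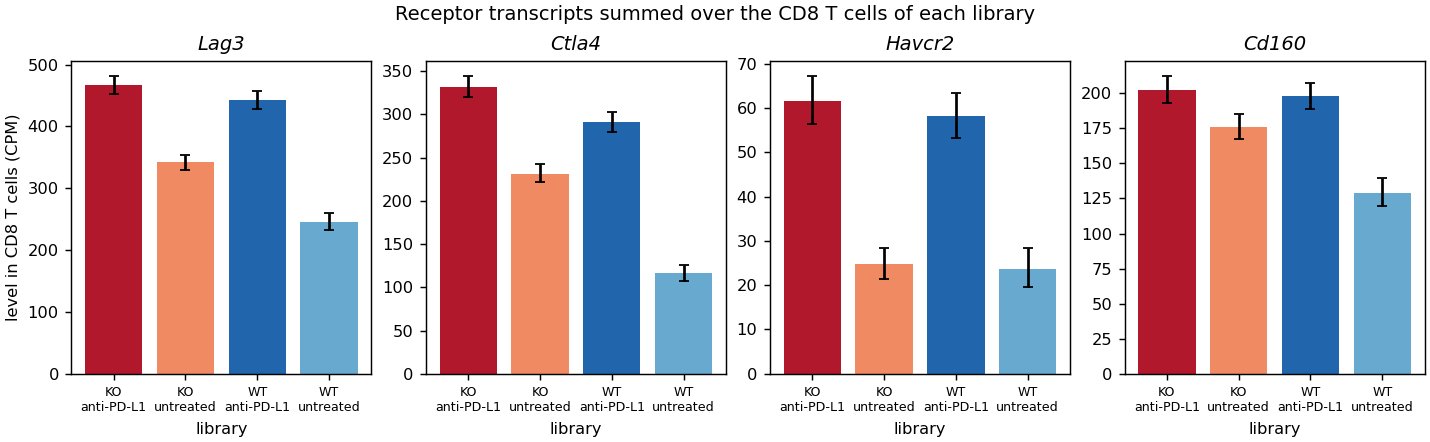
Level of each receptor in CPM, counts per 1000000 UMIs summed over the CD8 T cells of a library, with a bar per library and exact Poisson 95% intervals. Wild-type untreated is lowest in every panel, and Havcr2 splits by treatment, at 61.6 and 58.1 CPM in the anti-PD-L1 libraries and 24.7 and 23.7 CPM in the untreated ones.

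Between the untreated libraries, knockout and wild-type cells differed most in Ctla4. It was 1.99-fold higher in knockout cells, a log2 fold of 0.99 (0.86 to 1.13, exact conditional binomial interval). Lag3 was 1.39-fold higher (log2 0.47, 0.38 to 0.57) and Cd160 1.36-fold higher (log2 0.45, 0.31 to 0.58). Havcr2 gave a log2 fold of 0.06 (-0.27 to 0.40), an interval that holds 0. Counting a gene as changed when it averaged at least 20 CPM over the 4 libraries and differed by at least 1.5-fold, 1 of the 4 receptors was higher and none lower. Of all 4673 genes at that level 15.5% passed, 8.37% higher and 7.15% lower (391 and 334 genes, or 466 and 226 with TMM scaling). The median log2 fold was 0.46 over the receptors and -0.10 over all genes. In non-mitotic cells alone Lag3 and Cd160 also passed 1.5-fold, at log2 folds of 0.60 and 0.68, while Ctla4 stood at 1.06. Without cells holding a UMI of macrophage, melanoma or B cell genes, Havcr2 gave -0.17.

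With anti-PD-L1 the genotypes lay closer together. Ctla4 gave a log2 fold of 0.19 (0.11 to 0.27), knockout over wild-type. Lag3 gave 0.08 (0.01 to 0.14), Havcr2 0.09 (-0.10 to 0.27) and Cd160 0.03 (-0.07 to 0.13). The sign for Cd160 turned to -0.03 with TMM scaling, so no direction is given for it. No receptor passed 1.5-fold, as 2.87% of all genes did, 1.03% higher and 1.84% lower. With TMM scaling, which sets library totals by the bulk of genes, the genes numbered 31 higher and 96 lower in place of 48 and 86. The median log2 fold was 0.08 over the receptors and 0.09 over all genes. Whether the genotype fold differs between untreated and treated cells was not tested, since every group is a single library.

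In knockout cells, the fold of anti-PD-L1 over untreated was larger for Havcr2 than for the other receptors. Havcr2 was 2.49-fold higher (log2 1.32, 1.08 to 1.56). Ctla4 was 1.43-fold higher (log2 0.52, 0.44 to 0.60), Lag3 1.37-fold (log2 0.45, 0.38 to 0.52) and Cd160 1.15-fold (log2 0.20, 0.10 to 0.30). The receptors past 1.5-fold numbered 1 higher and none lower, where 4.58% of all genes passed, 2.8% higher and 1.78% lower. The median log2 fold was 0.48 over the receptors and -0.01 over all genes.

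In wild-type cells all 4 receptors were past 1.5-fold higher with anti-PD-L1, where 31.6% of all genes passed, 11.4% higher and 20.3% lower (531 and 947 genes, or 739 and 574 with TMM scaling). Ctla4 was 2.51-fold higher than in untreated cells (log2 1.33, 1.19 to 1.46) and Havcr2 2.45-fold (log2 1.29, 1.00 to 1.59). Lag3 was 1.80-fold higher (log2 0.85, 0.75 to 0.94) and Cd160 1.53-fold (log2 0.62, 0.48 to 0.75). The Cd160 fold sits near the threshold and moved both ways. It fell under the threshold with a stricter CD8 T cell gate (0.58) and in cells with Xist and without Y-linked UMIs (0.54). With TMM scaling it was 0.77, above its interval (0.48 to 0.75), and in non-mitotic cells it was above that interval too. The median log2 fold was 1.07 over the receptors and -0.18 over all genes. TMM scaling moved the median over all genes to -0.02 and the receptors up with it, to a median of 1.22. Havcr2 was 0.95 in non-mitotic cells. The untreated wild-type library enters both this comparison and the untreated genotype comparison, so their folds are not independent.

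**Figure D2:**
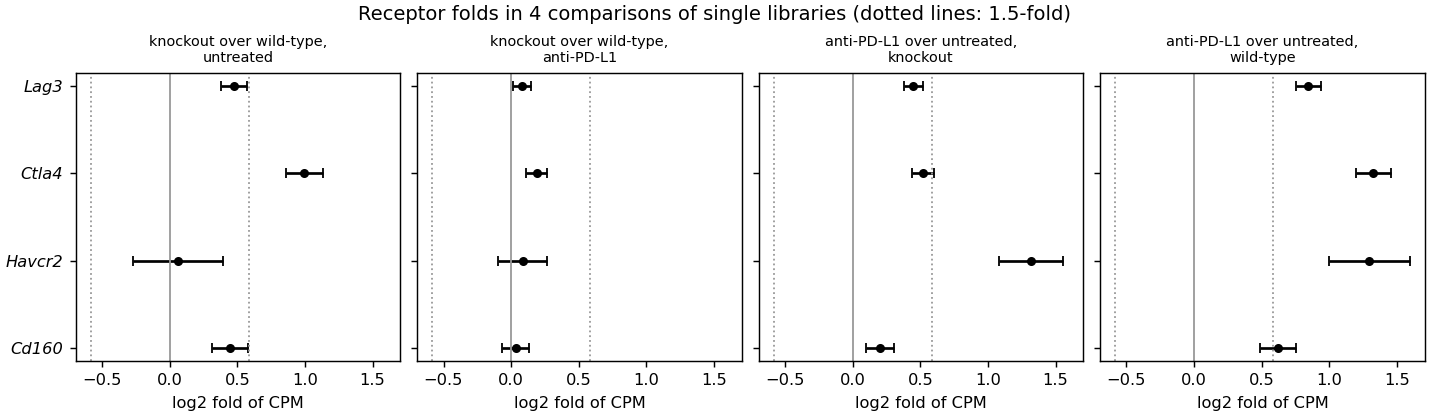
Log2 fold of CPM for each receptor, with exact conditional binomial 95% intervals, in the 4 comparisons of single libraries. Ctla4 alone passes the dotted 1.5-fold line between genotypes in untreated cells, Havcr2 alone between treatments in knockout cells, and all 4 receptors pass it between treatments in wild-type cells.

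Depth differs between libraries, so shares of positive cells were read after every cell had been thinned at random to 2600 UMIs. This left out 437 shallower cells and kept 4646. Lag3 was detected in 66.8% (63.8 to 69.7, exact binomial interval) of knockout anti-PD-L1 cells, 57.6% (55.0 to 60.2) of knockout untreated cells, 62.8% (60.0 to 65.4) of wild-type anti-PD-L1 cells and 44.0% (40.7 to 47.2) of wild-type untreated cells. Without thinning the shares were 89.4%, 75.6%, 81.7% and 59.9% in the same libraries. Ctla4 was detected in 51.2% (48.1 to 54.3), 41.7% (39.2 to 44.3), 49.8% (47.0 to 52.6) and 25.2% (22.4 to 28.1), in that order of libraries, and unthinned in 75.5%, 60.7%, 71.8% and 37.4%. The libraries kept the order of the summed levels for both genes, and the untreated wild-type cells were set furthest apart in Ctla4.

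Havcr2 was detected in 16.4% (14.1 to 18.8) of knockout anti-PD-L1 cells, 6.33% (5.13 to 7.71) of knockout untreated cells, 13.9% (12.0 to 15.9) of wild-type anti-PD-L1 cells and 5.45% (4.07 to 7.13) of wild-type untreated cells, and unthinned in 30.9%, 10.8%, 24.2% and 8.65%. Cd160 was detected in 35.8% (32.8 to 38.8), 32.9% (30.5 to 35.4), 34.8% (32.2 to 37.5) and 25.2% (22.4 to 28.1), in the same order, and unthinned in 60.3%, 48.6%, 54.6% and 36.9%. Positive cells also held more UMIs where more cells were positive. A Ctla4-positive cell held 1.82, 1.60, 1.68 and 1.23 UMIs on average in the 4 libraries, and a Lag3-positive cell 2.13, 1.86, 2.06 and 1.56.

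Melanoma cells, which should lack these receptors, were read for free RNA. Their gate takes out barcodes with a UMI of CD3 or Ptprc, so their shares can lie below the level of free RNA. Among 768 thinned melanoma cells of the wild-type untreated library 1.04% held a Lag3 UMI, 0.521% a Ctla4 UMI, 0.781% a Havcr2 UMI and 0.13% a Cd160 UMI, at the same 2600 UMIs as the CD8 T cells. Before thinning the median depth was 9983 UMIs in these melanoma cells and 3885 UMIs in the CD8 T cells of that library. Without thinning 2.95% of these melanoma cells held a Lag3 UMI, 1.03% a Ctla4 UMI, 2.82% a Havcr2 UMI and 0.257% a Cd160 UMI. The lowest share in CD8 T cells is that of Havcr2 in this same library, 5.45% thinned and 8.65% unthinned, above the melanoma share either way.

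**Figure D3:**
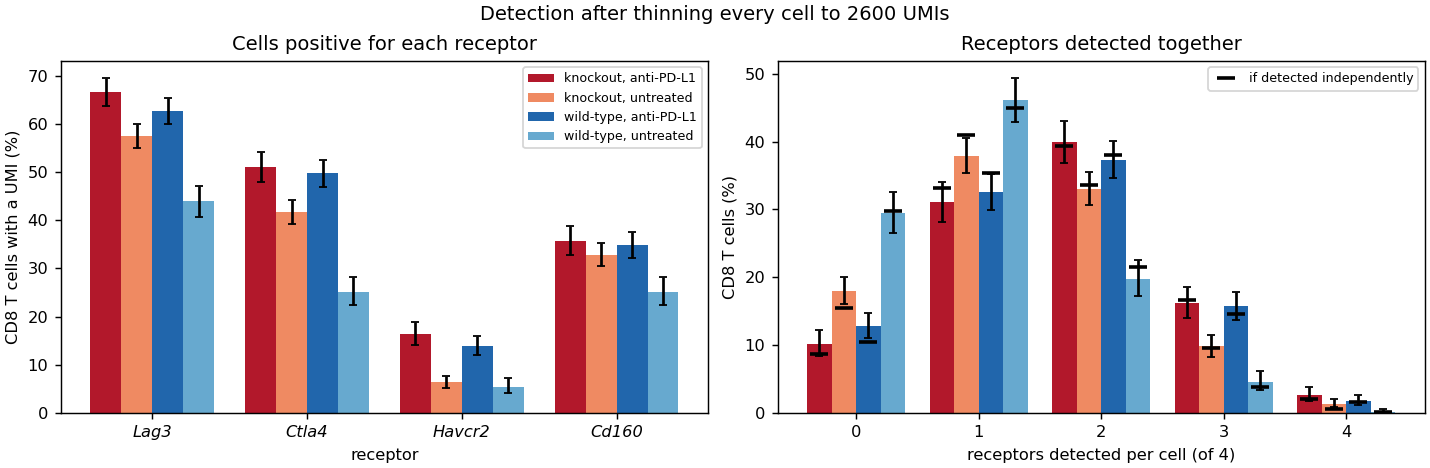
Left, percentage of CD8 T cells with a UMI of each receptor after thinning to 2600 UMIs. Right, percentage of cells by the number of the 4 receptors detected, with dashes for the percentage if they were detected independently. Bars are libraries with exact binomial 95% intervals, and wild-type untreated has the most cells with no receptor, 29.4%.

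Most CD8 T cells held a UMI of at least 1 receptor. None was detected in 10.2% of knockout anti-PD-L1 cells, 18.0% of knockout untreated cells, 12.8% of wild-type anti-PD-L1 cells and 29.4% of wild-type untreated cells. Independent detection at each library's own shares would give 8.71%, 15.5%, 10.5% and 29.7%. A cell without a UMI at this depth is not shown to lack the transcript. All 4 receptors were detected together in 27, 19, 22 and 1 cells, which is 2.66%, 1.31%, 1.74% and 0.109% of cells, where independence would give 2.0%, 0.5%, 1.51% and 0.152%. The combination of Lag3 and Ctla4 alone made up 19.0% of knockout anti-PD-L1 cells, 16.2% of knockout untreated cells, 19.1% of wild-type anti-PD-L1 cells and 7.09% of wild-type untreated cells.

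Co-detection of receptor pairs was set against the number that independent detection would give. Within a library, the ratio of cells with both to the number expected ranged from 0.861 to 1.35 over 6 pairs and 4 libraries. It was above 1 in 19 of these 24 values. A ratio cannot rise far where a receptor is common, and its interval does not use the shares of both receptors. An interval that holds 1 therefore does not show independence. Cd160 was detected in 39.9% of Lag3-positive and 27.6% of Lag3-negative cells of knockout anti-PD-L1, and in 35.2% and 29.7% in knockout untreated. In wild-type anti-PD-L1 these shares were 35.5% and 33.6%, and in wild-type untreated 25.1% and 25.3%. Havcr2 with Cd160 gave 1.11, 1.35, 1.22 and 1.35 in knockout anti-PD-L1, knockout untreated, wild-type anti-PD-L1 and wild-type untreated cells. Havcr2 with Lag3 gave 1.14, 1.30, 1.14 and 1.00, and the interval was above 1 in knockout untreated cells alone (1.02 to 1.64, the expected number taken as fixed). Ctla4 with Cd160 was the pair below 1 in every library, at 0.861, 0.928, 0.934 and 0.894. Its interval was below 1 in knockout anti-PD-L1 cells (0.742 to 0.992), where 160 cells held both and 185.8 were expected, and held 1 in the other 3 libraries. Over 36 values of this pair under other settings, 32 were below 1 and 4 above, from 0.76 to 1.03. Pairs with Havcr2, the receptor with the fewest positive cells, moved more with the settings. Havcr2 with Cd160 ranged from 0.326 to 1.38, with 6 of 36 values below 1, Havcr2 with Lag3 from 0.651 to 1.32, with 5 below 1, and Havcr2 with Ctla4 from 0.96 to 2.33, with 3 below 1. Pdcd1, which encodes PD-1, was found with Ctla4 at ratios of 1.09, 1.16, 1.10 and 1.22.

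**Figure D4:**
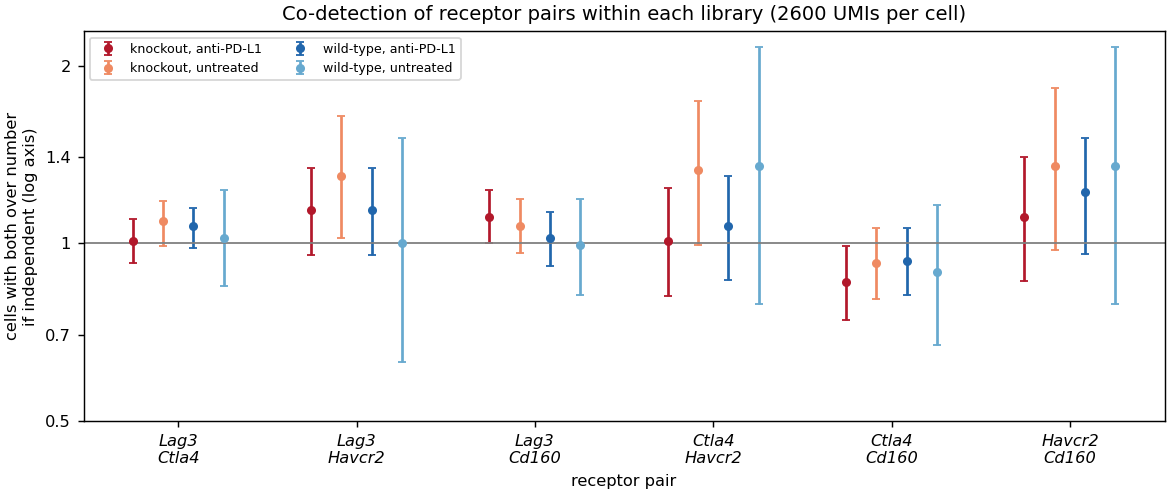
Number of CD8 T cells with UMIs of both receptors over the number expected from independent detection, on a log axis, for each pair and library at 2600 UMIs per cell. Error bars are exact binomial 95% intervals of the number of double-positive cells, with the expected number taken as fixed. Ctla4 with Cd160 lies below 1 in all 4 libraries, from 0.861 to 0.934, and most intervals of the other pairs hold 1.

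Receptor levels differed by cell state within each library. In mitotic cells Havcr2 was at 39.3 CPM against 87.3 CPM in other cells of the knockout anti-PD-L1 library, 14.6 against 38.6 CPM in knockout untreated, 39.9 against 72.1 CPM in wild-type anti-PD-L1 and 18.1 against 37.4 CPM in wild-type untreated. The log2 folds of mitotic over other cells were -1.15, -1.40, -0.85 and -1.04. For Lag3 they were -0.84, -0.88, -0.70 and -0.47, and for Ctla4 -0.32, -0.46, -0.51 and -0.27. For Cd160 they were -0.78, -0.64, -0.76 and -0.15, the last with an interval that holds 0 (-0.39 to 0.10). Mitotic cells were the deeper ones, with a median of 10585 against 5545 UMIs in knockout anti-PD-L1 and 4860 against 2968.5 UMIs in wild-type untreated. The part of depth in these folds was not tested.

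Among non-mitotic cells, Havcr2 was lower in cells with a Tcf7 UMI in every library. Tcf7-positive cells held 9 Havcr2 UMIs (18.7 CPM against 97.2 CPM in Tcf7-negative cells) in knockout anti-PD-L1, 3 UMIs (4.26 against 47.0 CPM) in knockout untreated, 20 UMIs (22.8 against 83.1 CPM) in wild-type anti-PD-L1 and 2 UMIs (5.07 against 49.5 CPM) in wild-type untreated. The log2 folds were -2.38 (-3.52 to -1.44), -3.46 (-5.76 to -1.89), -1.86 (-2.59 to -1.21) and -3.29 (-6.37 to -1.36). Median depths of the compared cells were close, for example 5720 and 5536 UMIs in knockout anti-PD-L1. The other receptors differed less. Ctla4 gave -0.37, -0.56, -0.60 and -0.60, Cd160 -0.37, -0.80, -0.27 and -0.33, and Lag3 -0.44, -0.35, -0.50 and 0.01. The intervals of Cd160 and Lag3 in wild-type untreated hold 0.

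**Figure D5:**
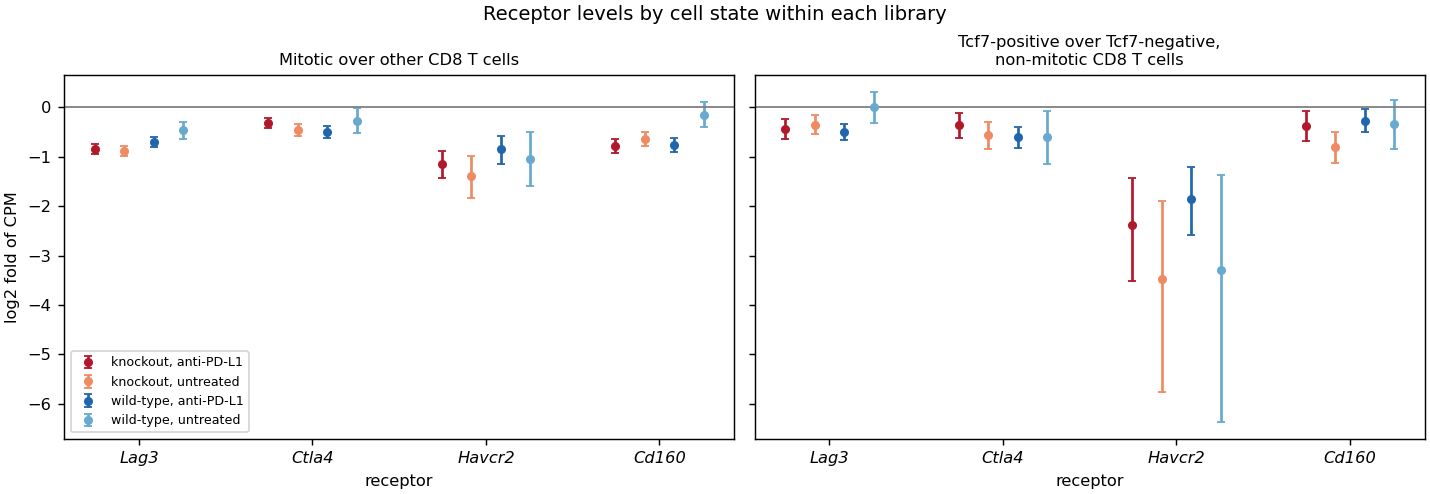
Log2 fold of receptor CPM in mitotic over other CD8 T cells, left, and in Tcf7-positive over Tcf7-negative non-mitotic cells, right, for each library with exact conditional binomial 95% intervals. Havcr2 in Tcf7-positive cells lies furthest below 0, from -1.86 to -3.46.

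Cells with Havcr2 and without Tcf7 were 30.0% of CD8 T cells in knockout anti-PD-L1, 10.2% in knockout untreated, 23.1% in wild-type anti-PD-L1 and 8.47% in wild-type untreated, not corrected for depth. In these cells Ctla4 stood at 369 CPM against 316 CPM in the remaining CD8 T cells of knockout anti-PD-L1, 313 against 223 CPM in knockout untreated, 358 against 270 CPM in wild-type anti-PD-L1 and 145 against 113 CPM in wild-type untreated. The last of these log2 folds, 0.36, has an interval that holds 0 (-0.04 to 0.73). Lag3 gave log2 folds of 0.33, 0.44, 0.33 and -0.16 in the 4 libraries, the last with an interval that holds 0 (-0.47 to 0.13). Cd160 differed in sign, at -0.20 (-0.35 to -0.04) in knockout anti-PD-L1, 0.35 (0.12 to 0.58) in knockout untreated, 0.22 (0.07 to 0.38) in wild-type anti-PD-L1 and -0.19 (-0.63 to 0.22) in wild-type untreated. In Pdcd1-positive over Pdcd1-negative cells Ctla4 gave log2 folds of 0.38, 0.50, 0.33 and 0.41 and Havcr2 0.89, 0.67, 0.63 and 0.62. The interval of Havcr2 in wild-type untreated holds 0 (-0.01 to 1.29). Cd160 changed sign between libraries, at -0.28, 0.17, -0.16 and 0.24, and Lag3 did too, at 0.06, 0.24, 0.39 and -0.21.

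Havcr2 was the receptor also found in macrophages, at levels within a few fold of those in CD8 T cells. In macrophages, gated by at least 3 UMIs of C1qa, C1qb and C1qc and none of CD3, Havcr2 stood at 48.2 CPM (36.9 to 61.9) in knockout anti-PD-L1, 40.5 CPM (30.6 to 52.6) in knockout untreated, 17.7 CPM (9.13 to 30.9) in wild-type anti-PD-L1 and 13.7 CPM (5.91 to 27.0) in wild-type untreated. The knockout libraries were above the wild-type ones, from 127, 278, 101 and 165 cells. Recipient macrophages need not share the genotype of the transferred cells. Lag3, Ctla4 and Cd160 reached at most 7.90 CPM there. Macrophage markers summed to 623, 1102, 620 and 549 CPM in the CD8 T cells of the 4 libraries. Without cells holding UMIs of other lineages, the log2 fold of Havcr2 with anti-PD-L1 over untreated was 1.30 in knockout cells, against 1.32 with them. In wild-type cells it was lower, 0.996 against 1.29, and below the interval of that fold (1.00 to 1.59). The part of macrophage RNA in the Havcr2 levels was not tested.

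The ligands of LAG-3, CTLA-4 and TIM-3 were read in the tumour's other cells. In macrophages the MHC class II gene H2-Aa stood at 6843, 7473, 6400 and 4342 CPM in knockout anti-PD-L1, knockout untreated, wild-type anti-PD-L1 and wild-type untreated, and in melanoma cells at 1156, 762, 495 and 254 CPM. Cd86, a ligand of CTLA-4 and CD28, stood at 142, 129, 106 and 71.9 CPM in macrophages and at 0.843 CPM or less in melanoma cells. Lgals9, which encodes galectin-9, was found in both, at 145, 147, 128 and 144 CPM in macrophages and 86.5, 85.7, 66.5 and 76.3 CPM in melanoma cells. Tnfrsf14, the CD160 ligand, was at 2.95 CPM or less in both. Summed over the gated CD8 T cells, H2-Aa was 3.03-fold higher in knockout untreated than in wild-type untreated. It was 0.381-fold in knockout anti-PD-L1 against knockout untreated. Macrophage markers summed to 1102 against 549 CPM and 623 against 1102 CPM in these comparisons. Few gated cells held an H2-Aa UMI, and the shares between genotypes were close. Without thinning they were 8.27% in knockout untreated and 8.3% in wild-type untreated. With anti-PD-L1 they were 5.41% in knockout and 5.48% in wild-type. H2-Aa was also 0.6-fold in knockout over wild-type cells with anti-PD-L1, where macrophage markers summed to 623 against 620 CPM, and 1.92-fold with anti-PD-L1 in wild-type cells, where they summed to 620 against 549 CPM. Their part in the H2-Aa result was not tested. Of 11 ligand genes 6 averaged at least 20 CPM in CD8 T cells. Between untreated genotypes 4 were higher and none lower, where 15.5% of all genes passed. They were the MHC class II genes H2-Aa, H2-Ab1 and H2-Eb1, which share a locus and are not independent, and Lgals3. Between genotypes with anti-PD-L1 none was higher and 3 lower, H2-Aa, H2-Eb1 and Lgals3, where 2.87% of all genes passed. With anti-PD-L1 over untreated the 3 class II genes were lower and none higher in knockout cells, where 4.58% passed, and in wild-type cells the class II genes and Lgals3 were higher and none lower, where 31.6% passed.

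Partner genes were read from lists chosen with earlier results known. Of 7 co-stimulatory receptors 6 averaged at least 20 CPM. In knockout over wild-type untreated cells 4 were higher past 1.5-fold and none lower, against 8.37% and 7.15% of all genes. Their median log2 fold was 0.70, and that of all genes -0.10. Icos was 3.65-fold higher, Cd28, which competes with CTLA-4 for ligand, 1.71-fold, Tnfrsf18 1.68-fold and Tnfrsf9 1.56-fold. In anti-PD-L1 over untreated wild-type cells 4 were higher and none lower, with Icos 4.65-fold, against 11.4% and 20.3% of all genes. In knockout cells Tnfrsf9 alone was higher with treatment, 1.8-fold, where 2.8% of all genes were higher, and none of the 6 passed between genotypes with anti-PD-L1. The comparisons with 4 genes past the threshold share the wild-type untreated library. Of 12 other inhibitory receptors and PD-1 ligands 4 averaged 20 CPM, of which none was higher and 1 lower between untreated genotypes, none passed between treated ones, and 2 were higher and none lower in each treatment comparison, against the same shares of all genes. Pdcd1 was 0.755-fold in knockout over wild-type untreated cells, opposite to Ctla4, and 0.92-fold with anti-PD-L1. It was 1.51-fold with anti-PD-L1 in knockout cells and 1.24-fold in wild-type cells. Vsir, which encodes VISTA, was 1.68-fold and 2.44-fold in these treatment comparisons, and Cd96 was 0.595-fold in knockout over wild-type untreated cells.

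Of 14 transcription factors 10 averaged 20 CPM. In knockout over wild-type untreated cells 5 were higher and 1 lower, where 15.5% of all genes passed, and with anti-PD-L1 over untreated in wild-type cells 6 were higher and 3 lower, where 31.6% passed. Both comparisons use the wild-type untreated library, which stood apart. In each of the comparisons without it, none was higher and 1, Tcf7, was lower. There 2.87% of all genes passed between genotypes with anti-PD-L1, 1.84% of them lower. With anti-PD-L1 over untreated in knockout cells 4.58% passed, and 1.78% of all genes were lower. Nr4a1, an early gene of T cell receptor signalling, was 5.37-fold higher in knockout over wild-type untreated cells. With anti-PD-L1 over untreated in wild-type cells it was 8.19-fold higher. Nr4a3 was 2.59-fold and 3.34-fold higher in the same comparisons, which use the wild-type untreated library. Tox, a factor of exhausted T cells, was 0.428-fold and 0.42-fold in these same comparisons with wild-type untreated. Tcf7 was 0.425-fold with anti-PD-L1 in knockout cells and 0.562-fold in wild-type cells. Of 10 signalling and trafficking genes 7 averaged 20 CPM. Ptpn6, which encodes the phosphatase SHP-1, was the one past 1.5-fold between untreated genotypes, at 0.543-fold, where 15.5% of all genes passed. It was also the one with anti-PD-L1 in wild-type cells, at 0.573-fold, where 31.6% passed. In knockout cells with anti-PD-L1 Ptpn11 alone passed, at 0.643-fold, where 4.58% of all genes did. None passed between genotypes with anti-PD-L1.

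The genes whose counts went most with each receptor across cells differed between receptors. Likeness was the Pearson correlation of log counts at 2600 UMIs across the cells of a library, averaged over the 4 libraries, among 4666 genes. The cells of a library share its preparation, counts are sparse and the values are low. Nkg7, a cytotoxic granule gene, led for Lag3 (0.27), followed by Ms4a4b (0.21), Ccl5 (0.19), Fxyd5 (0.19) and Malat1 (0.19). AW112010 led for Ctla4 (0.18), then Tmsb4x (0.18), Pdcd1 (0.16), S100a6 (0.14) and Plac8 (0.14). Gzmb, a granzyme, led for Havcr2 (0.25), then the chemokines Ccl5 (0.23) and Ccl4 (0.19), S100a6 (0.19) and Ccl3 (0.19). The chemokine Xcl1 led for Cd160 (0.32), then Crtam (0.23), Ccl1 (0.18), Tnfrsf9 (0.17) and Nkg7 (0.17). The Gzmb value with Havcr2 was alike in all libraries, from 0.239 to 0.267. The leading genes of the other receptors had their lowest value in wild-type untreated. Xcl1 with Cd160 gave 0.162 there, against 0.361 to 0.396 elsewhere. Nkg7 with Lag3 gave 0.131 against 0.314 to 0.331, and AW112010 with Ctla4 0.066 against 0.197 to 0.253. Cd160 ranked 4612 of 4666 in the list of Ctla4, at -0.07.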

How the data were processed

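The authors deposited raw UMI counts, unnormalized, 1 table per library with barcodes as rows. The submitters' processing notes list DESeq2, HTSeq, bedtools, Bowtie2, HISAT2, Genrich 0.5, Trim Galore 0.5.0 and the build mm10, with no roles. The counter and the cell calling behind these tables are not given in those sources. Every table lists most barcodes in 2 forms with other counts, and which the authors used is not stated. The listing with 2 hyphens in the barcode was used (1346, 2312, 1680 and 2384 barcodes in knockout anti-PD-L1, knockout untreated, wild-type anti-PD-L1 and wild-type untreated), and the other was an alternative. At most 0.00281% of UMIs lay in columns left out.

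Cells with at least 500 genes and at most 10% mitochondrial UMIs were kept. No doublet caller was run, so doublets remain. UMIs were summed over gated cells and scaled to CPM. Intervals are exact Poisson for CPM, exact (Clopper-Pearson) binomial for shares and exact conditional binomial for folds (scipy 1.17.1, numpy 2.4.6), and cover counting error only. The fold code was tested on simulated data. With 1 library per group no p-value is given. Genes changed when they averaged at least 20 CPM and differed by at least 1.5-fold. TMM factors from edgeR 4.0.16 were an alternative scaling. Other alternatives were the cell filter, the gate, the thinning depth, mitotic cells, Xist and Y-linked UMIs, equal weight per cell and leaving out the highest cell. Melanoma cells were gated by at least 3 UMIs of Mlana, Pmel, Dct and Tyrp1 with none of CD3 or Ptprc. Named genes are the 4 receptors, members of the partner lists, and the 5 genes most correlated with each receptor. The members, lists and rules were chosen with earlier results of these data known. The other 16 samples of the series were not analysed here.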

Additional observations from a re-analysis of the deposited data

How the results depend on the processing

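No paired analysis was possible because each group is a single library. None of the 160 alternative values of the receptor folds reversed a fold past 1.5-fold, and 146 stayed within the counting interval. In knockout over wild-type untreated cells Lag3 moved to 0.603 and Cd160 to 0.679 in non-mitotic cells, and Cd160 to 0.589 with equal weight per cell. In knockout over wild-type anti-PD-L1 cells Lag3 moved to 0.204 and Havcr2 to 0.276 in non-mitotic cells. In anti-PD-L1 over untreated knockout cells Ctla4 moved to 0.432 in non-mitotic cells, and Cd160 to 0.074 with the other listing and 0.078 without UMIs of other lineages. In anti-PD-L1 over untreated wild-type cells TMM moved Lag3 to 0.999, Ctla4 to 1.479 and Cd160 to 0.77, Havcr2 moved to 0.996 without UMIs of other lineages and 0.947 in non-mitotic cells, and Cd160 to 0.798 in non-mitotic cells. Among receptors under 1.5-fold the sign turned for Havcr2 in untreated genotypes (-0.17 without UMIs of other lineages) and for Cd160 with anti-PD-L1 (-0.05 with the other listing, -0.03 without UMIs of other lineages, -0.03 with TMM). Counts of all genes, higher and lower, depend on the floor and the fold. They were 391 and 334 in knockout over wild-type untreated cells, and became 193 and 164 at 50 CPM, 2606 and 3346 without a floor, 162 and 33 at 2-fold, and 466 and 226 with TMM. In knockout over wild-type anti-PD-L1 cells they were 48 and 86, and became 9 and 39, 2009 and 2064, 9 and 24, and 31 and 96, and the higher count was 93 in non-mitotic cells. In anti-PD-L1 over untreated knockout cells they were 131 and 83, and became 73 and 40, 2212 and 2213, and 31 and 20, and the lower count was 133 in non-mitotic cells. In anti-PD-L1 over untreated wild-type cells they were 531 and 947, and became 280 and 543, 2890 and 4239, 260 and 189, and 739 and 574 with TMM. The cause of these shifts was not tested, beyond the floor and the fold setting which genes count. Alternative co-detection ratios stayed within their interval in 211 values and left it in 5, Havcr2 with Cd160 at 0.87 (knockout untreated, 4000 UMIs), 0.96 (wild-type anti-PD-L1, 1500 UMIs) and 0.326 (wild-type untreated, other listing), Lag3 with Cd160 at 1.14 (wild-type anti-PD-L1, 1500 UMIs) and Ctla4 with Havcr2 at 2.33 (wild-type untreated, 1500 UMIs). Shares and co-detection in non-mitotic cells were added after seeing the data. The number of receptors with the highest share in knockout anti-PD-L1 was 4, and 3 in non-mitotic cells and at thinning depths of 1500 and 4000 UMIs. Wild-type untreated had the lowest share of all 4, or of 3 without UMIs of other lineages. The library is the unit here: animals, tumours and preparation cannot be told apart from genotype or treatment.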

Other observations

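Cells with a Y-linked UMI and no Xist were found in the wild-type libraries and were compared with cells holding Xist and no Y-linked UMI, 172 against 940 cells with anti-PD-L1 and 116 against 769 cells untreated. Lag3 gave log2 folds of -0.02 (-0.16 to 0.12) and -0.18 (-0.46 to 0.10), Ctla4 0.13 (-0.04 to 0.29) and -0.12 (-0.54 to 0.28), Havcr2 0.01 (-0.39 to 0.39) and -0.66 (-1.93 to 0.39), and Cd160 -0.03 (-0.25 to 0.17) and 0.11 (-0.25 to 0.45). Every interval holds 0, and the widest, for Havcr2 in untreated cells, rests on 8 UMIs in the Y-linked cells. In the knockout libraries 0 cells were of the first kind.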
